A study of Mus musculus with 111 samples.

Results

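Zfp599, Sox15 and Jade1 are 3 genes for regulators of transcription that had been picked as lower in mouse 2-cell embryos after knockdown of Nr5a2, an orphan nuclear receptor. They are 3 of 36134 genes with counts summed over transcripts, and all 3 were among the 13448 genes that passed the filter on low counts. The measurements were polyadenylated RNA of single B6129F1 embryos. Fully grown oocytes, still in prophase of meiosis, had received by injection a set of 2 siRNAs at 20 µM each, against Nr5a2 or as a control, and both arms also received 150 ng/µl of marker RNA, coding for H2B-EGFP in controls and for H2B-rsEGFP in knockdown embryos. After 5 hours in arrest medium and 12 hours of maturation they underwent in vitro fertilization and were grown to the 2-cell stage. Experiment 1 had 24 control and 16 knockdown embryos, experiment 2 had 7 and 16, and experiment 3 had 25 and 23, so that 56 control and 55 knockdown embryos were compared. Because the 3 genes were chosen by the same contrast, their difference between arms is a description, without a test. The marker RNA also differed with the arm, so its effect cannot be told apart from that of the siRNAs against Nr5a2.

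Zfp599 encodes a protein with C2H2 zinc fingers. Many proteins of that class bind particular DNA sequences, and those with a KRAB domain silence their targets through the co-repressor Trim28 and the methyltransferase Setdb1. Sox15 encodes an SRY-related factor that bends DNA through its HMG box and can bind beside Oct4 at composite sites. Jade1 encodes a PHD finger protein, the scaffold that joins the acetyltransferase Kat7 to Meaf6 and an ING subunit and directs the complex to histone H4. Zygotic genome activation in the mouse has its main wave at the 2-cell stage, when stored maternal RNA is being removed at the same time, so the amount of an RNA in these embryos combines both.

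In GENCODE M21 (GRCm38), Zfp599 (ENSMUSG00000062794) lies on the minus strand of chromosome 9, from 22247430 to 22259895, and has 1 transcript of 3574 nucleotides in 5 exons. Of its 31-base words, 94.6% occurred in no other gene and 5.42% were shared with 10 other genes, mostly with Gm18182. Sox15 (ENSMUSG00000041287) lies on the plus strand of chromosome 11, from 69655314 to 69656727, with 1 transcript of 861 nucleotides in 2 exons whose 3′ end overlaps that of Mpdu1 on the other strand. Jade1 (ENSMUSG00000025764) lies on the plus strand of chromosome 3, from 41555731 to 41616864, and has 14 transcripts; the antisense gene Gm31266 lies within it. The libraries do not record the strand, so reads of these overlaps cannot be assigned to either gene.

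The RefSeq promoters (GRCm38.p6) are shown because the genes were all picked as lower in knockdown and because the Jade1 transcripts start at separate sites. The table held 1 promoter of Sox15 and 4 of Jade1, each reaching from 250 bases before the start site to 50 after it. Capitals mark CG dinucleotides. The first is the Sox15 promoter (chr11:69654787-69655086, plus strand), built on a RefSeq start at 69655037, so that the window ends before the start at 69655314 of the GENCODE transcript that was counted; the second is the upstream Jade1 promoter (chr3:41555484-41555783, plus strand), where the longest of its abundant transcripts starts, and the third is the downstream Jade1 promoter (chr3:41564630-41564929, plus strand), beside the start of the transcript with the most counts.
Sox15: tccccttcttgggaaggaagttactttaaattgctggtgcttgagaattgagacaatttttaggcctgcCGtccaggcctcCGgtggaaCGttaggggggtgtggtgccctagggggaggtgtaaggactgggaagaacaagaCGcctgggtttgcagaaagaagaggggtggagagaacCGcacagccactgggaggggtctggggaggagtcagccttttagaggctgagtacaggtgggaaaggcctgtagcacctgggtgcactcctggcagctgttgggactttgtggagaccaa
Jade1 upstream: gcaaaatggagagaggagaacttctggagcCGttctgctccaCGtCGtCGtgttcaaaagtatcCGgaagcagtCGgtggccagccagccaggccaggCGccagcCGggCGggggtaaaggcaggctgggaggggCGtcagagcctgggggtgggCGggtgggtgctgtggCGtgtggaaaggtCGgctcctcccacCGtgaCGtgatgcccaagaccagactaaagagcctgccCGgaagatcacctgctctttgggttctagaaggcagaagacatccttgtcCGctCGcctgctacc
Jade1 downstream: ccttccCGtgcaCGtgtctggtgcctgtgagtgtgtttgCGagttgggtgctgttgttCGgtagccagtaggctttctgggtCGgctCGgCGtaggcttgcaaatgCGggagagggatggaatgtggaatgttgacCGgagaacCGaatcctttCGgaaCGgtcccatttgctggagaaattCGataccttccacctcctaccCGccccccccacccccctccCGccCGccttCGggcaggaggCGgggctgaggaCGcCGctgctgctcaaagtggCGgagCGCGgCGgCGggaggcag
The Sox15 promoter had 5 CG dinucleotides and 56% G and C, below the median of 7 CG over all promoters of this length. The upstream and downstream Jade1 promoters had 18 and 25, and the other two had 14 and 38. The letters AAGGTCA and AAGGCCA, core forms of the site that NR5A receptors bind, were searched on both strands, and neither occurred in any of the 5 promoters. AAGGTCA occurred in 4.72% and AAGGCCA in 6.2% of 32851 RefSeq promoters, and either of them in 10.6%. This says only that these letters are not in these windows.

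The estimated counts of a library came to between 1.97 and 21.4 M, with 4.78 M in the median one, and levels are given as counts per M (CPM) after TMM scaling. Each library came from 1 embryo and pools its 2 cells, so that less RNA in 1 cell and less RNA in both cannot be told apart. The mothers of the embryos are not labelled, so each p-value refers to the spread among embryos, some of which may share a mother. As a check of the targeted gene, Nr5a2 was 103 CPM in the median control embryo and 47.2 CPM in the median knockdown embryo. On the log2 scale Nr5a2 differed by -1.17 (SE 0.12; Benjamini-Hochberg adjusted p = 3.71e-12 in the quasi-likelihood test of edgeR), and 52 of 55 knockdown embryos were below the control median. The authors' own values per Nr5a2 transcript were not alike. ENSMUST00000192929.5 had -1.56 (SE 0.16), ENSMUST00000192357.5 -1.34 (SE 0.27) and ENSMUST00000168126.6 -1.31 (SE 0.57). ENSMUST00000027649.13 had -0.09 (SE 0.18). The Nr5a2 level used here, also in the correlations, is the sum over its transcripts. The 20 oocyte markers summed to medians of 5374 CPM in control and 5227 CPM in knockdown embryos, and the 20 markers of the 2-cell stage to 3014 and 2832 CPM. Cumulus cell markers summed to medians of 10.5 and 11.2 CPM and sperm markers to 2.98 and 2.30 CPM. Of the 10 cumulus markers, 6 had a median of 0 (Has2, Ptx3, Amh, Foxl2, Fshr and Inha), as had 6 of the 9 sperm markers. Of the mitochondrial genes, 6 of 13 were called higher in knockdown (edgeR), beside 0.632% of all genes tested. The median of their sum was 68872 CPM in control and 76135 CPM in knockdown embryos. In control and knockdown embryos it was 76154 and 77824 CPM in experiment 1, and 59732 and 62665 CPM in experiment 2. In experiment 3, where the shift was largest, it was 67841 and 84153 CPM. The part of the mitochondrial genes in the results below was not tested.

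Knockdown embryos 8 and 5 of experiment 3 stood apart from the rest. Their median Pearson's r with the other embryos over log2 CPM was 0.637 and 0.644, against a median of 0.845 over all embryos. Their oocyte markers summed to 26521 and 14092 CPM, the highest values of any embryo. Zfp599 was 7.59 and 4.69 CPM there, Sox15 5.25 and 14.1 CPM, and Jade1 26.8 and 13.6 CPM. The fold changes and pooled correlations below are also given without them where this bears on the value.

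Zfp599 was below the control median of its experiment in 50 of 55 knockdown embryos, against 44 for Jade1 and 40 for Sox15. In experiment 1 the lowest, median and highest control embryos had 34.2, 182 and 297 CPM, and the knockdown embryos 42.6, 89.0 and 197 CPM. In experiment 2 the values were 73.9, 154 and 309 CPM in controls and 57.9, 95.6 and 269 CPM in knockdown embryos. In experiment 3 they were 43.5, 162 and 320.3 CPM in controls and 4.69, 65.3 and 168 CPM in knockdown embryos. The groups overlapped in every experiment, but the knockdown embryos lay mostly in the lower part of the control range: 15 of 16, 13 of 16 and 22 of 23 were below the control median of their experiment. The log2 fold change was -1.01 (SE 0.17) over all embryos, and -0.93 (SE 0.28), -0.55 (SE 0.37) and -1.24 (SE 0.25) in experiments 1, 2 and 3. Without the embryos that stood apart it was -0.95 (SE 0.16) over all and -1.12 (SE 0.24) in experiment 3.

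The lower tail of Zfp599 in knockdown embryos of experiment 3 reached far under every control embryo. The 5 lowest embryos there had 4.69, 7.59, 9.17, 10.0 and 12.7 CPM, and the sixth had 20.9 CPM. They came from 19, 26, 33, 52 and 55 counts, so the low values were counted and are not zeros. The 3 lowest were also the 3 embryos least like the others over all genes, with a median r of 0.644, 0.637 and 0.699; the fourth and the fifth had 0.778 and 0.810. Within that group the SD of log2 CPM was 1.49, and 1.22 without the embryos that stood apart, against 0.62 to 0.80 in the other groups.

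The median of Sox15 was lower in knockdown than in control embryos of experiments 1 and 3, and higher in those of experiment 2. Experiment 1 had a lowest, median and highest value of 10.7, 57.0 and 179 CPM in controls and of 3.26, 26.2 and 57.0 CPM in knockdown embryos. Experiment 3 had 6.35, 37.5 and 111.2 CPM in controls and 4.05, 23.2 and 95.2 CPM in knockdown embryos. In experiment 2 the controls had 10.4, 23.0 and 125 CPM and the knockdown embryos 7.05, 30.8 and 140 CPM. In experiment 1 the highest knockdown embryo was level with the control median, while in experiment 2 the knockdown embryos spanned the whole control range. The number of knockdown embryos below the control median was 15 of 16, 5 of 16 and 20 of 23. The log2 fold change was -0.84 (SE 0.21) over all embryos, and -1.24 (SE 0.34), -0.04 (SE 0.45) and -0.81 (SE 0.29) by experiment. Control embryo 6 of experiment 2 held the 125 CPM, and the other 6 controls there ran from 10.4 to 40.3 CPM. Without it the fold change in experiment 2 was 0.63 (SE 0.49), in the other direction, and that over all embryos was -0.77 (SE 0.21). Without knockdown embryos 5 and 8 of experiment 3 it was -0.79 (SE 0.21) over all and -0.72 (SE 0.30) in experiment 3.

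Over all embryos Jade1 had the smallest fold change of the 3, although in experiment 2 that of Sox15 was nearer to 0, and its values under the alternatives overlapped those of Sox15. It also had the least spread pooled over the 6 groups. In experiment 1 the lowest, median and highest values were 75.1, 115 and 247 CPM in controls and 34.1, 65.0 and 116 CPM in knockdown embryos. In experiment 2 they were 75.5, 158 and 279 CPM in controls and 44.2, 109 and 225 CPM in knockdown embryos. In experiment 3 they were 37.7, 94.7 and 186 CPM in controls and 13.6, 58.4 and 131 CPM in knockdown embryos. Of the 16 knockdown embryos of experiment 1, 9 were below the lowest control embryo; the overlap was larger in experiments 2 and 3, where 2 of 16 and 4 of 23 were. The log2 fold change was -0.62 (SE 0.12) over all embryos, and -0.77 (SE 0.20), -0.34 (SE 0.27) and -0.61 (SE 0.17) by experiment. Without the embryos that stood apart it was -0.57 (SE 0.11) over all and -0.50 (SE 0.17) in experiment 3. Within groups the SD of log2 CPM was 0.62 for Jade1, 0.94 for Zfp599 and 1.04 for Sox15.

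**Figure D1:**
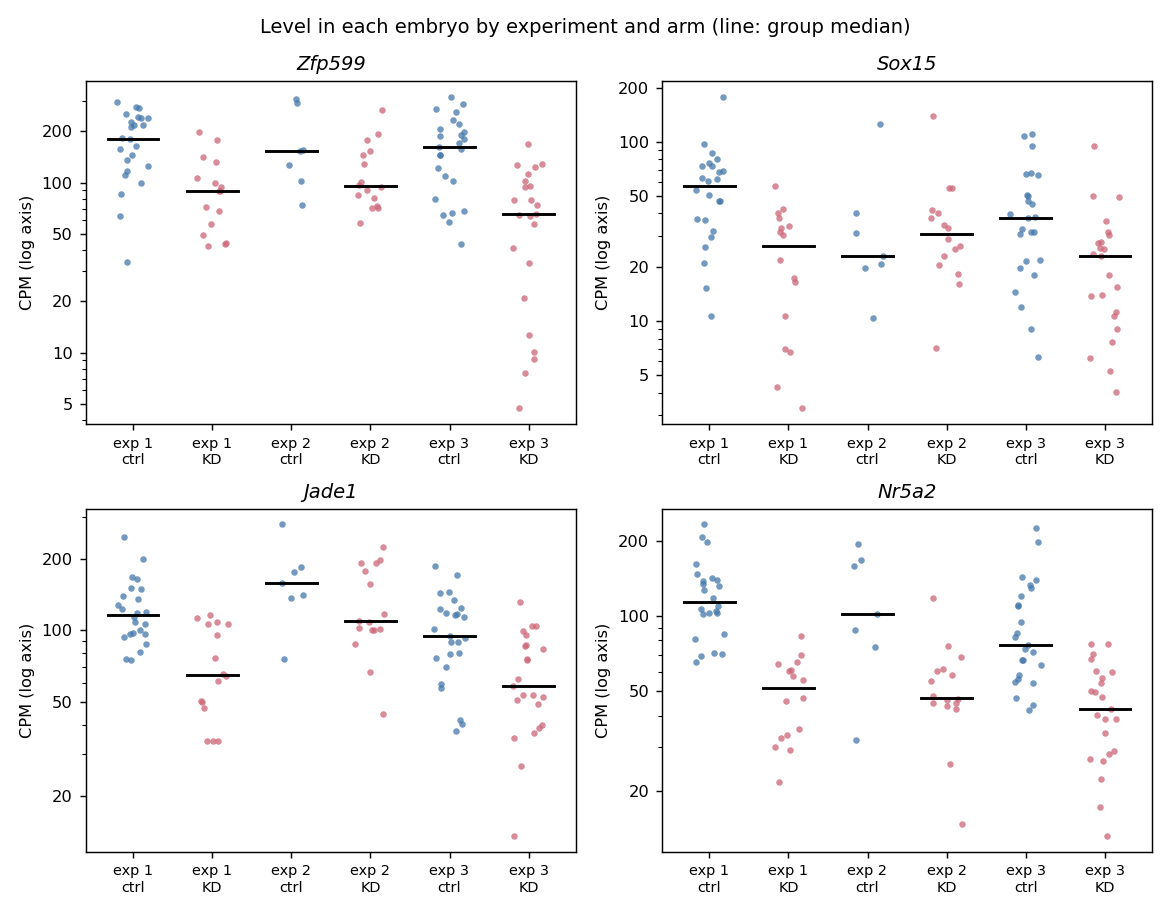
Level of Zfp599, Sox15, Jade1 and Nr5a2 in each embryo, in CPM on a log axis, by experiment and arm (ctrl, control; KD, knockdown); each point is 1 embryo and the line is the group median. Zfp599 in knockdown embryos of experiment 3 reaches down to 4.69 CPM, and the Sox15 median of experiment 2 is higher in knockdown (30.8 CPM) than in control embryos (23.0 CPM).

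The 3 genes were below the control median of the same experiment together in 32 of 55 knockdown embryos and in 8 of 56 control embryos. In experiment 1 this held for 13 of 16 knockdown embryos, in experiment 2 for 4 of 16 and in experiment 3 for 15 of 23. All 3 genes passed the edgeR threshold of an adjusted p of 0.05 in the lower direction, as did 0.468% of the genes tested. Nothing is read from that count or from the joint counts of embryos, since the members were picked as lower in knockdown.

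Whether the size of the response differed between experiments was tested with interaction terms, which the choice of genes did not use. None of the 3 passed (edgeR, adjusted p = 0.973 for Zfp599, 0.938 for Sox15 and 0.973 for Jade1), and 0.0149% of the genes tested did. None was under an unadjusted p of 0.05 either, a level reached by 5.65% of genes; the unadjusted p-values were 0.308, 0.119 and 0.442, and the DESeq2 likelihood ratio test also called none of the 3. For Sox15 the unadjusted p was 0.00969 without control embryo 6 of experiment 2 (adjusted p = 0.636). The SE of a fold change in experiment 2, with 7 controls, was up to 0.45, which limits what this test can show.

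**Figure D2:**
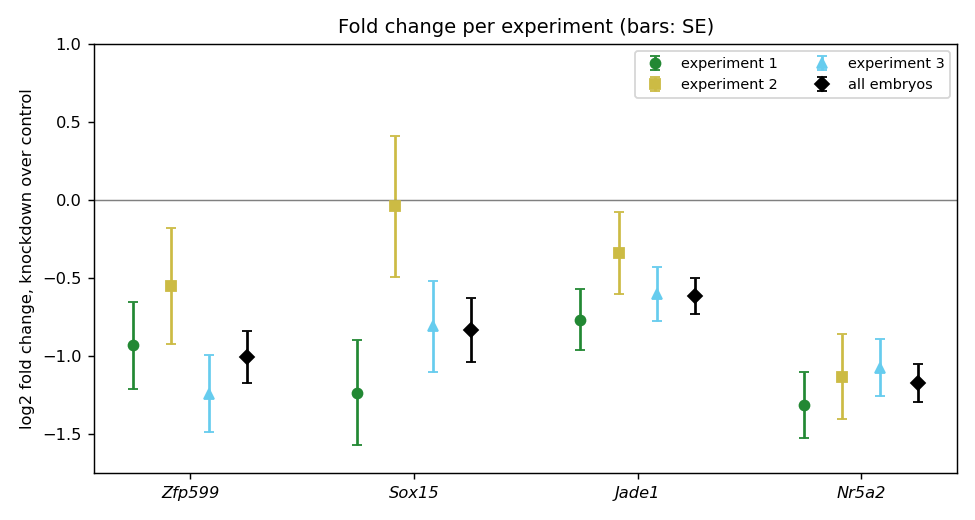
Log2 fold change of knockdown over control for Zfp599, Sox15, Jade1 and Nr5a2 in each experiment and over all embryos; bars are the SE. The value of experiment 2 is the nearest to 0 for Zfp599, Sox15 and Jade1 (-0.55, -0.04 and -0.34), while that of Nr5a2 there is -1.13.

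The base level of the genes was compared between experiments in control embryos. None of the 3 differed at an adjusted p of 0.05 (edgeR F-test over the 3 control groups), while 10.9% of all genes did. In the contrasts of experiment 1 with 2, 1 with 3 and 2 with 3 none of the 3 passed either, beside 4.9%, 9.14% and 1.61% of all genes. The adjusted p was 0.921 for Zfp599, 0.461 for Sox15 and 0.0850 for Jade1. Jade1 alone was under an unadjusted p of 0.05 (p = 0.0120), with median controls of 158 CPM in experiment 2, 115 CPM in experiment 1 and 94.7 CPM in experiment 3. The step from experiment 2 to experiment 3 was 0.72 on the log2 scale (SE 0.24, adjusted p = 0.141, edgeR), and the neighbouring steps of 0.41 (SE 0.25) and 0.31 (SE 0.17) were no larger relative to their error. The Zfp599 control medians of 182, 154 and 162 CPM in experiments 1 to 3 lay within the spread of each group.

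Per length of transcript, control embryos held 56.8 ± 38.7 CPM per kb of Sox15, 47.8 ± 21.3 of Zfp599 and 36.9 ± 18.8 of Jade1 (SD, n = 56). The spreads between embryos overlapped, and differences between the 3 genes were not tested. Of the other JADE scaffolds, Jade2 was at 5.14 ± 2.02 and Jade3 at 7.39 ± 6.39 CPM per kb, so Jade1 was the most abundant of the 3 paralogs. Its partner acetyltransferase Kat7 was at 67.0 ± 17.8 CPM per kb. In knockdown embryos the levels were 32.9 ± 26.6 for Sox15, 25.3 ± 14.9 for Zfp599 and 27.0 ± 17.6 for Jade1 (SD, n = 55).

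Zfp599 and Sox15 had 1 transcript each, so their transcript and gene levels are the same. Of the 14 Jade1 transcripts, 4 held nearly all counts. ENSMUST00000191952.1, of 3327 nucleotides, starts at 41564920 and ends early, at 41606695, in a longer version of an exon that the other forms splice onward. It had a mean of 46.2 ± 29.2 CPM in control (SD, n = 56) and 35.3 ± 25.9 CPM in knockdown embryos (SD, n = 55). Its share of the Jade1 counts was 38.8% and 39.0%, and it was the most abundant form in 30 of 56 control and 35 of 55 knockdown embryos. ENSMUST00000026865.14, of 5481 nucleotides and from the upstream promoter, had 28.7 ± 17.5 and 18.9 ± 11.8 CPM, or 25.3% and 23.2% of the counts. ENSMUST00000168086.6, of 4790 nucleotides and starting by the downstream promoter, had 25.2 ± 19.2 and 19.0 ± 13.2 CPM, or 21.2% and 23.0%. ENSMUST00000170711.7, of 2896 nucleotides, had 13.3 ± 12.3 and 9.67 ± 12.3 CPM, or 10.9% and 10.7%.

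These shares pool experiments with unequal numbers of embryos per arm. Within experiment 1 the share of ENSMUST00000168086.6 was 18.5% in control and 26.8% in knockdown embryos, within experiment 2 it was 13.2% and 12.9%, and within experiment 3 27.5% and 30.5%. The share of ENSMUST00000191952.1 was 39.5% and 36.6%, 43.5% and 45.1%, and 36.2% and 34.8% in the same order. In these pooled counts, where embryos with more counts weigh more, the direction differed between experiments for both forms. The median share per embryo of ENSMUST00000191952.1 was lower in knockdown in each experiment (39.0% and 34.6%, 44.3% and 42.2%, 35.1% and 34.0%). That of ENSMUST00000168086.6 was 19.9% and 25.3%, 8.05% and 14.2%, and 29.1% and 26.9%. The log2 fold changes of the 4 forms were -0.64 (SE 0.16), -0.70 (SE 0.20), -0.40 (SE 0.31) and -0.88 (SE 0.43) in the order given above, and they differed from each other by no more than their errors. The authors' deposited table, from their own test per transcript, gives -0.58, -0.66, -0.30 and -0.94 for these 4 forms. It gives -0.96 for Zfp599 and -0.75 for Sox15. The split between Jade1 forms is an estimate: 52.7% of the 31-base words of the short form occur in no other transcript, but only 0.29% of those of ENSMUST00000026865.14 and 0.92% of those of ENSMUST00000168086.6 do.

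**Figure D3:**
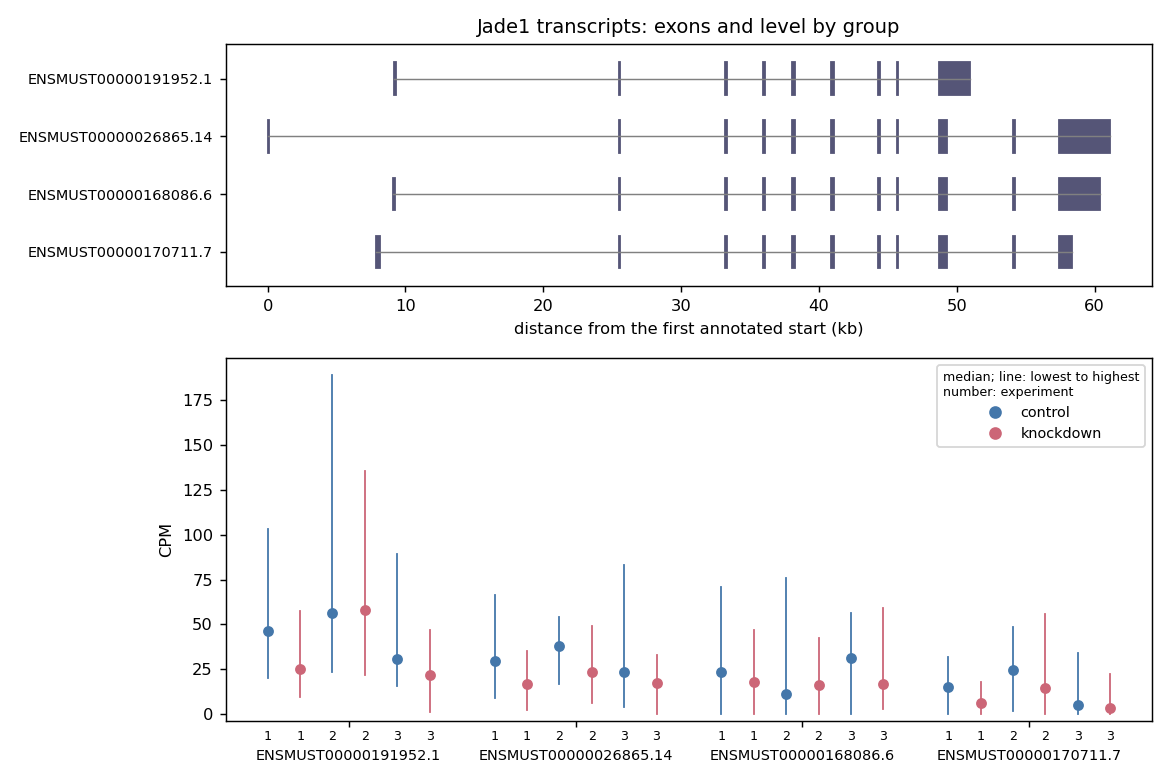
Top, exons of the 4 main Jade1 transcripts by distance in kb from the first annotated start; bottom, CPM of each transcript by experiment and arm (point, median; line, lowest to highest embryo). The short transcript ENSMUST00000191952.1 ends before the last exons of the others, and its highest medians are in experiment 2.

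How the genes varied from embryo to embryo was examined within the 6 groups, which removes the difference between arms that chose them. Each of 15 pairs was tested over all control and knockdown embryos with log2 CPM centred within groups (Pearson's r, 100000 permutations within groups, Benjamini-Hochberg over the 15). Jade1 was higher in embryos with more Nr5a2 RNA than the rest of their group (r = 0.406, permutation p = 3e-05, adjusted p = 0.00045; by ranks 0.320, p = 0.00088, adjusted p = 0.0066). The correlation was positive in 6 of 6 groups, from 0.173 to 0.745. It was 0.352 (permutation, adjusted p = 0.0021) without the embryos that stood apart, but 0.253 (permutation p = 0.0165, adjusted p = 0.0617) once the 2 most extreme embryos of each group by Nr5a2 were left out, so that it rests in part on those. Zfp599 had r = 0.289 with Nr5a2 (permutation p = 0.0033, adjusted p = 0.0102; by ranks 0.235, p = 0.0149, adjusted p = 0.0420), 0.198 (adjusted p = 0.106) without the embryos that stood apart 0.242 (adjusted p = 0.0783) without the farthest embryos and 0.212 (adjusted p = 0.234) without experiment 3. Sox15 had r = 0.202 (permutation p = 0.0395, adjusted p = 0.0592; by ranks 0.174, p = 0.0756). Among the 13447 other genes tested, the r of Jade1 with Nr5a2 stood at the percentile 96.1, that of Zfp599 at 88.3 and that of Sox15 at 79.7, where the median gene had -0.01.

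**Figure D4:**
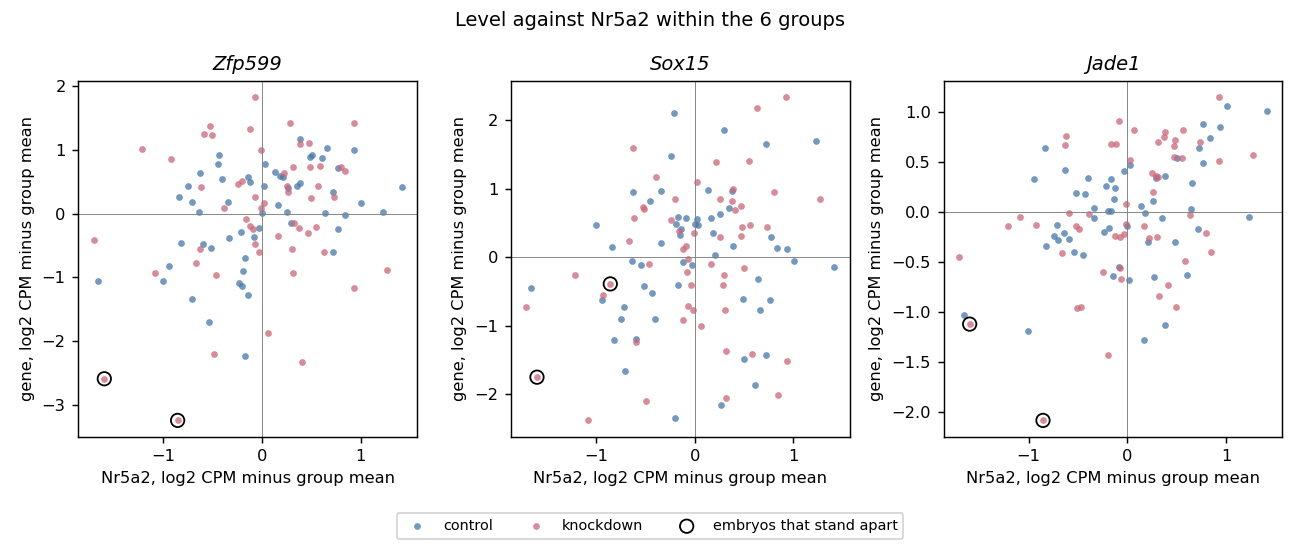
Log2 CPM of Zfp599, Sox15 and Jade1 against that of Nr5a2, each minus the mean of its group, 1 point per embryo; circles mark knockdown embryos 5 and 8 of experiment 3. The pooled r is 0.289, 0.202 and 0.406, and the circled embryos lie at the low end of Zfp599 and Jade1.

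Over all embryos Sox15 was lower where RNA of 2-cell genes such as the Zscan4 cluster was higher. Its r with the 2-cell score, the mean log2 CPM of 19 such genes, was -0.297 (permutation p = 0.00226, adjusted p = 0.0102; by ranks -0.334, p = 0.00042, adjusted p = 0.0063). It was negative in 6 of 6 groups, -0.354 (adjusted p = 0.0021) without the embryos that stood apart, and -0.382 (permutation, adjusted p = 0.00345) without the 2 embryos of each group farthest in the score. Without experiment 3 it was -0.286 and no longer passed (permutation, adjusted p = 0.106). In control embryos alone it was -0.420 (adjusted p = 0.0124) and in knockdown embryos alone -0.189 (adjusted p = 0.206); the difference between the arms was not tested. Zfp599 (r = 0.131, permutation, adjusted p = 0.270) and Jade1 (r = 0.072, adjusted p = 0.506) did not pass. Of the 19 genes tested of the 2-cell list, none was called between arms by edgeR, beside 1.1% of all genes, and DESeq2 called none. In edgeR 1 was under an unadjusted p of 0.05, beside 9.5% of all genes. Counts so near these shares say little about the list.

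The correlations with the oocyte score, the mean log2 CPM of 19 oocyte genes, were negative over all embryos but depended on which embryos entered. The pooled r was -0.249 for Zfp599 (permutation p = 0.0184, adjusted p = 0.0344), -0.269 for Sox15 (p = 0.00728, adjusted p = 0.0182) and -0.362 for Jade1 (p = 0.00034, adjusted p = 0.00255). By ranks they were 0.0281 (p = 0.774), -0.280 (p = 0.00378) and -0.284 (p = 0.00343). Without the embryos that stood apart they were -0.100 (adjusted p = 0.441), -0.227 (adjusted p = 0.0791) and -0.268 (adjusted p = 0.0277). Without the 2 embryos of each group farthest in the score they were -0.109 (adjusted p = 0.519), -0.318 (adjusted p = 0.0189) and -0.137 (adjusted p = 0.366). The value for Zfp599 thus rested on those embryos. That for Jade1 rested on them in part, since it passed by ranks (permutation, adjusted p = 0.0142) and without the embryos that stood apart. Without experiment 3 none passed: r was 0.258 for Zfp599 (permutation, adjusted p = 0.144), in the other direction, -0.0809 for Sox15 (adjusted p = 0.659) and -0.219 for Jade1 (adjusted p = 0.234). Nr5a2 itself had r = -0.356 with this score (permutation p = 9e-05, adjusted p = 0.00027 over 3 pairs), and -0.276 (adjusted p = 0.0109) without the embryos that stood apart. With the score removed from both values, r of Jade1 with Nr5a2 was 0.319 (permutation p = 0.00086, adjusted p = 0.0103), and r of Zfp599 with Nr5a2 was 0.222 (p = 0.0210, adjusted p = 0.0631).

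Among themselves the 3 genes were weakly related. Zfp599 and Jade1 had r = 0.252 (permutation p = 0.0164, adjusted p = 0.0344), but 0.0972 (adjusted p = 0.441) without the embryos that stood apart and 0.137 by ranks (p = 0.162). Sox15 had 0.214 with Jade1 (permutation p = 0.0301, adjusted p = 0.0502), and passed by ranks (0.233, adjusted p = 0.0420), with library totals only (0.218, adjusted p = 0.0492) and without the farthest embryos (0.277, adjusted p = 0.0385), but not without the embryos that stood apart (0.186, adjusted p = 0.135). It had 0.192 with Zfp599 (p = 0.0546, adjusted p = 0.0744). Over all embryos Zfp599 was higher in larger libraries (r = 0.240 with log2 library total, permutation p = 0.00341, adjusted p = 0.0102; by ranks 0.212, p = 0.0305, adjusted p = 0.0653). Without the 2 farthest embryos of each group r was 0.165 (permutation, adjusted p = 0.147). By group r was positive in 5 of 6, and -0.387 in control embryos of experiment 3. The part of library size in the other values was not tested. In single groups, 1 of 90 correlations passed after adjustment, that of Zfp599 with the oocyte score in knockdown embryos of experiment 3 (r = -0.715, permutation, adjusted p = 0.0225; rho = -0.451, adjusted p = 0.339; r = -0.538 without the 2 farthest embryos).

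Genes with the most similar pattern were taken from the 56 control embryos, by Pearson's r of log2 CPM centred by experiment over genes with an average log2 CPM of at least 4. For Zfp599 they were Nxf1, the mRNA export receptor, with r = 0.663, Brd8dc with 0.662 and Cdca5, which encodes the cohesin regulator sororin, with 0.661. In the 55 knockdown embryos these had 0.581, 0.574 and 0.687. For Sox15 they were Rrp7a, a ribosome assembly factor (0.665), Igf2r, the receptor that sends IGF2 to the lysosome (0.659), and the autophagy lipid transporter Atg2b (0.659), with 0.474, 0.341 and 0.220 in knockdown embryos. For Jade1 they were the nucleolar protein gene Nop56 (0.556), the uridine-cytidine kinase Uck2 (0.551) and the Integrator subunit Ints2 (0.542), with 0.421, 0.46 and 0.441 in knockdown embryos. The correlation with the median gene was 0.0617 for Zfp599, 0.0738 for Sox15 and 0.0299 for Jade1 in control embryos. None of these 9 genes was itself called between arms (edgeR), and their points share libraries and scaling.

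The partners and relatives of the 3 proteins were taken as lists, by their counts. Of the histone acetyltransferase complexes that contain JADE or BRPF scaffolds, 11 of 11 other genes were tested, none was called in either direction, and the median log2 fold change was 0.06, beside 0.02 for all genes tested. The list was called by neither edgeR nor DESeq2, and 2 of its genes were under an unadjusted p of 0.05 (Ing4 and Kat6a), as were 9.5% of all genes; over all genes, 1.1% were called in either direction. Ing4, an ING subunit of the Jade1 complex, had the smallest p, and its log2 difference was 0.36 (SE 0.12; edgeR, adjusted p = 0.157). Kat7 had -0.04 (SE 0.10), Jade2 0.18 (SE 0.14), Jade3 -0.04 (SE 0.23) and Meaf6 0.08 (SE 0.11).

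Of the KRAB co-repressor list, 14 of 14 genes were tested and none was called by edgeR or DESeq2, where edgeR called 1.1% of all genes. Under an unadjusted p of 0.05 were 2 (Setdb1 and Cbx1), beside 9.5% of all genes, and the median log2 fold change was 0.01. The same shares over all genes hold for the lists that follow, and at them a short list would have few or no called genes. Setdb1, the histone H3 lysine methyltransferase of the complex, had the smallest p, with -0.21 (SE 0.08, adjusted p = 0.276, edgeR), and Trim28 had -0.22 (SE 0.13, adjusted p = 0.662). Of 19 other SOX genes 5 passed the filter on low counts, none was called by either tool or was under an unadjusted p of 0.05, and the median was 0.05. Sox8 had the smallest p there (log2 fold change -0.32, SE 0.31, adjusted p = 0.871, edgeR). Of 25 transcription factors of the early embryo 20 were tested, none was called by either tool, 2 were under an unadjusted p of 0.05 (Esrrb and Obox5), and the median was -0.04. The nuclear receptor gene Esrrb had the smallest p (0.35, SE 0.17, adjusted p = 0.499, edgeR), and Pou5f1, which encodes Oct4, had 0.03 (SE 0.18).

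The genomic neighbours had a median near that of all genes. Within 100 kb of a start site of the 3 genes, or overlapping them, lay 42 genes, of which 15 were tested, 3 around Zfp599, 12 around Sox15 and 0 around Jade1. None was called by edgeR or DESeq2, where edgeR called 1.1% of all genes. Under an unadjusted p of 0.05 were 2, beside 9.5% of all genes. The median log2 fold change of the 15 was 0.06. Atp1b2, which encodes a subunit of the sodium pump and starts at -49.37 kb from the start of Sox15, had -0.60 (SE 0.19, adjusted p = 0.121, edgeR), and the cytokine gene Tnfsf12, on the other side, had 0.47 (SE 0.18, adjusted p = 0.258). Mpdu1, whose 3′ end overlaps that of Sox15, had 0.06 (SE 0.18), and Fxr2, the nearest gene tested before Sox15, had -0.01 (SE 0.10). The zinc finger genes beside Zfp599 had 0.18 (Zfp809, SE 0.15) and 0.17 (Zfp810, SE 0.21). The other tested neighbours were Wrap53, Trp53, Shbg, Sat2, Cd68, Eif4a1, Senp3, Tnfsfm13 and Rpl15-ps3, none past an unadjusted p of 0.05.

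**Figure D5:**
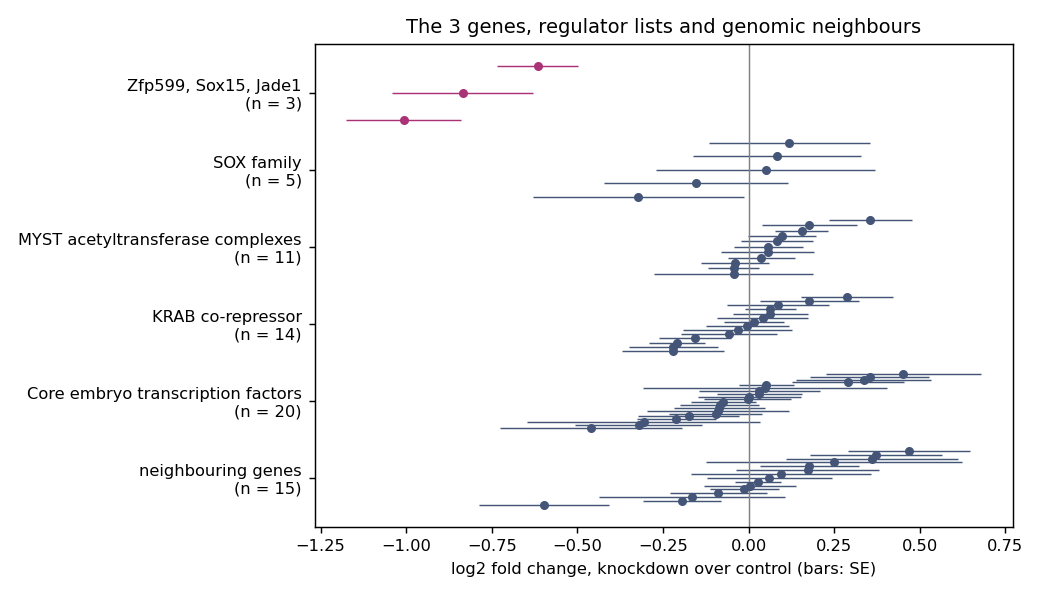
Log2 fold change of knockdown over control for Zfp599, Sox15 and Jade1, for the genes tested of 4 regulator lists, and for 15 genomic neighbours; bars are the SE. The medians of the MYST, KRAB co-repressor, SOX and transcription factor lists are 0.06, 0.01, 0.05 and -0.04.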

How the data were processed

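Polyadenylated RNA of 111 single 2-cell embryos was measured with SmartSeq2 and oligo dT priming, per the labels, without molecular identifiers or strand. Per the submitters' processing notes, kallisto 0.46.1 was used, as were Trim Galore 0.6.2 and bcl2fastq, with DESeq2 1.32.0 in R 3.5.1; which annotation the index held is not stated. The values used are estimated counts (also called expected counts) of each transcript, which the authors deposited without normalization. A deposited comparison table from the authors holds a log2 fold change and an adjusted p-value for each transcript, and only the former is quoted. Tables of normalized and of batch-adjusted values were not used here. The design text names 57 controls; that numbered 1 in experiment 2 is not analysed here.

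Counts were summed to 36134 genes by the gene of the deposited table (or GENCODE M21 for 345 transcripts) and rounded; transcripts without a gene, with a median of 0.567% of counts, were left out. The 13448 genes left by filterByExpr were fitted with edgeR 4.0.16 (R 4.3.3, TMM, experiment and arm as factors, quasi-likelihood F-test, Benjamini-Hochberg at 0.05) with 107 residual degrees of freedom; log2 values for correlations used a prior count of 2. DESeq2 1.42.0, other scalings, no filter, left-out experiments and a replicate block were alternatives. The scripts were tested on simulated data. Groups came from the title and treatment labels. Permutation tests are two-sided, with 1e-05 as the smallest possible p.

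The 3 genes and the lists were chosen with earlier results of these data known. Named are the 3 genes and Nr5a2, of each of the 4 regulator lists the called genes or else that with the smallest p, tested neighbours, and for each gene the 3 most correlated genes. Kat7, Kat6a, Jade2, Jade3, Meaf6, Cbx1, Trim28, Obox5 and Pou5f1 were added after their values were seen.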

Additional observations from a re-analysis of the deposited data

Results flagged for a closer look

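Among the 7 control embryos of experiment 2, embryo 6 had 125 CPM of Sox15, far above the next highest embryo at 40.3 CPM. The gap took 0.739 of the range of the group in CPM, more than Dixon's 95% limit for 7 samples. The check was made on CPM and not on log2 values, where high values lie closer together. In log2 CPM minus the group mean, embryo 6 was at 2.11, the next highest at 0.487 and the lowest at -1.43. By these log2 values the gap took a smaller part of the range, below that limit, so the mark holds for CPM only. Sox15 also reached 179 CPM in controls of experiment 1 and 140 CPM in knockdown embryos of experiment 2. The same check passed over Zfp599, Jade1 and Nr5a2 in these embryos, and chance marks about 1 in 20 groups. Its 125 CPM came from 468 counts. Without it the Sox15 fold change of experiment 2 changes direction, as given with the Sox15 values.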

How the results depend on the processing

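The fold changes of the 3 genes kept their direction under 10 alternatives each, with ranges of -1.15 to -0.79 for Zfp599, -0.99 to -0.60 for Sox15 and -0.67 to -0.53 for Jade1. In experiment 2, Sox15 had a log2 fold change of 0.63 without control embryo 6 of that experiment. With no filter but a count above 0, 1 core transcription factor was higher (Nr0b1), and 1 neighbour was lower (Gm10182) and 1 higher (Gm18228). Without experiment 2, 1 gene of the acetyltransferase list was higher (Ing4). Of the 15 correlations 8 passed; 1 did without experiment 3, 4 without knockdown embryos 5 and 8 of experiment 3 and 3 without the 2 farthest embryos of each group. Signs changed for Jade1 with the 2-cell score (-0.0208 by ranks, -0.0858 without experiment 3, -0.0690 without embryos 5 and 8, -0.0877 without the farthest embryos), for Jade1 with library total (0.0937 without experiment 1, 0.0013 without the farthest), for Zfp599 with the oocyte score (0.0281 by ranks, 0.258 without experiment 3) and for Zfp599 with the 2-cell score (-0.0150 without embryos 5 and 8). The cause was not tested. Leaving out embryos 5 and 8 or embryo 6, ranks and removal of the oocyte score were chosen after seeing the data. Over all genes, 63 were lower and 85 higher; DESeq2 gave 86 and 142, library totals 69 and 58, no filter 391 and 571, and omission of experiment 1, 2 or 3 gave 9 and 14, 59 and 136, or 11 and 31. Embryos with the same number had a median r of 0.0523 over 46 pairs, with 16 above 0.1 and 5 most like their own number. No chance level was computed for these counts, so they do not settle whether the numbers pair embryos. The main fit did not use the numbers. With a replicate block 9 and 14 genes were called, and Nr5a2 had -1.11 (edgeR, adjusted p = 2.41e-05). The 7 controls of experiment 2 limit what can be seen there.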
